A study of Mus musculus with 12 samples.

Results

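The mitochondrial ribosomal protein genes examined here are the protein-coding genes of GENCODE M21 whose symbol starts with Mrpl or Mrps followed by a digit. The rule found 78 of the 51826 genes in the count files, 49 with an Mrpl and 29 with an Mrps symbol. Their RNA was counted in 12 libraries of 3′ mRNA sequencing, made from 19DN cells, which descend from the mouse B cell lymphoma line 19PP. That line arose in a Rag2-/-γC-/- mouse that had received bone marrow of the genotype Cγ1-Cre and Myc/P110*flSTOP, and its GFP and hCD2 reporters were later deleted with Flp. All 6 groups share this background, so every comparison was made within 1 tumour line. The cells carried RPL12 in its wild-type form (WT), with a serine-to-alanine substitution (S38A) or with a serine-to-aspartate substitution (S38D). Asynchronous cultures of each line were set against mitotic cells, which had received nocodazole, a drug that disassembles microtubules, at 100 ng/mL for 8 h, followed by 10 min in fresh medium. Each group had 2 libraries, and the harvest took place in 100 µg/mL cycloheximide. The labels do not say that replicates came from separate cultures, so the p-values below measure only the spread between these libraries, which may be technical. They also do not say how the RPL12 lines were made or whether each is a single clone.

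Mitochondria carry their own ribosome, which translates the small set of membrane proteins encoded in mitochondrial DNA. Its RNAs are made inside the organelle, but all of its proteins are encoded in the nucleus, translated in the cytosol and imported. Some of these proteins have counterparts in bacterial ribosomes, whereas others were added in the mitochondrial lineage. Symbols do not always follow the assembled particle. Mrps30 and Mrps18a encode proteins of the large subunit, and the product of Mrps36 is known as a component of the alpha-ketoglutarate dehydrogenase complex rather than of the ribosome. By known location, 51 genes belonged to the large subunit, 26 to the small subunit and 1, Mrps36, to neither. The large subunit genes comprised 29 with a bacterial counterpart and 22 specific to mitochondria, and the small subunit genes 16 and 10. The genes lay on 17 chromosomes, with the most, 11, on chromosome 11. RPL12 itself, known as uL11, is a protein of the cytosolic large subunit, and its counterpart in the mitochondrial large subunit is encoded by Mrpl11.

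Gene reads per library ranged from 3432875 to 6587997. The replicates of the S38D asynchronous and WT mitotic groups differed most. Replicate 1 of each is called below the library that stood apart. A difference between 2 replicates cannot show which of them departs, and this was not tested. In these groups 9.8% and 5.74% of all genes tested differed by more than 1 on the log2 scale between replicates, against 2.23% to 2.69% in the other 4. The same genes tended to separate the replicates in several groups: the replicate 2 minus replicate 1 differences of S38D asynchronous, WT mitotic and S38A mitotic cells correlated with each other at r = 0.55 to 0.79 across 7062 genes, and those of S38A asynchronous cells correlated with these 3 at -0.36 to -0.40. Genes are not independent replicates, so these values are a description. The B cell markers were expressed, with summed levels of 1288 to 3082 CPM. CPM are reads of a gene per 1000000 reads that the library had in genes passing the filter on low counts, after TMM scaling. The marker lists of other lineages (T and NK, myeloid, and stromal, epithelial or erythroid cells) each summed to at most 7.42 CPM in any library. Of those 18 genes, 9 were at 0 in every library, among them Cd3e, Itgam and Col1a2. Counts at the 3′ end cannot show the RPL12 substitution, so the line labels were not checked by sequence.

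Promoter windows are shown first, so that genes moving together can be compared by sequence. RefSeq (GRCm38.p6) gave a window from 250 bases before to 50 bases after the transcript start for 69 of the 78 genes. The 6 windows below, written 5′ to 3′ in the direction of transcription, belong to genes called in the same direction in mitotic cells of all 3 lines (Mrps6, Mrps2, Mrpl2 and Mrpl24), to the most abundant gene, Mrpl12, and to Mrps22, whose difference between S38A and WT mitotic cells kept its call under every alternative. Mrpl38, also called in all 3 lines, had no window. Capitals mark a match to one of 4 motifs on either strand: the ETS core CCGGAAG bound by factors such as GABPA, the NRF1 motif (GCGCA, 1 free base, then GCGC), the YY1 motif AAGATGGCG and the E-box CACGTG, bound by MYC and related factors.
Mrps6, chr16:92058086-92058385, plus strand: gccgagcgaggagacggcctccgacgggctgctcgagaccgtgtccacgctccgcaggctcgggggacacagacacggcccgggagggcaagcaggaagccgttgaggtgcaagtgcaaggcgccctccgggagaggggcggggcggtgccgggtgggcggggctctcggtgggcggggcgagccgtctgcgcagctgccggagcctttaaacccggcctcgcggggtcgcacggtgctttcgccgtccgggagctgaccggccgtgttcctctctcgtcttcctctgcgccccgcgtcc
Mrps2, chr2:28467816-28468115, plus strand: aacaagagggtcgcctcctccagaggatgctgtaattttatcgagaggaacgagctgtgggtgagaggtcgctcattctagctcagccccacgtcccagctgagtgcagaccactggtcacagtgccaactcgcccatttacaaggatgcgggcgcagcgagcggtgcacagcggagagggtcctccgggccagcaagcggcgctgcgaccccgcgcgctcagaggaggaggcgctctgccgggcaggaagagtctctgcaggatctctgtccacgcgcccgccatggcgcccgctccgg
Mrpl2, chr17:46645987-46646286, plus strand: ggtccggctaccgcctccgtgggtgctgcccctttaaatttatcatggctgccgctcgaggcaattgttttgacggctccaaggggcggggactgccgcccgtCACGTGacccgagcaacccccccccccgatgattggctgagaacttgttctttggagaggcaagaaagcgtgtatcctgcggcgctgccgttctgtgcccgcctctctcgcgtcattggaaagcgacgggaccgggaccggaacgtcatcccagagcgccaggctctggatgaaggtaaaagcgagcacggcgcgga
Mrpl24, chr3:87919294-87919593, plus strand: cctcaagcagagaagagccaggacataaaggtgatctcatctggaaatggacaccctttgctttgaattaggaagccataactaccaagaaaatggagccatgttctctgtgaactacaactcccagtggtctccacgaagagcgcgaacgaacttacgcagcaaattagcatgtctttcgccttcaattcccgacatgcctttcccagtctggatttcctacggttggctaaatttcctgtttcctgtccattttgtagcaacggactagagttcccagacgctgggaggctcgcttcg
Mrpl12, chr11:120484387-120484686, plus strand: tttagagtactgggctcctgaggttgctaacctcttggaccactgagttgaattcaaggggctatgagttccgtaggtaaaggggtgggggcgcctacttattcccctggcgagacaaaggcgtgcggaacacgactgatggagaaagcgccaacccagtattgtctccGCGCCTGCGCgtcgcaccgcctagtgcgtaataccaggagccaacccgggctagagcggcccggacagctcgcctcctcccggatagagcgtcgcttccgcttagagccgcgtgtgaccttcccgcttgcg
Mrps22, chr9:98601630-98601929, minus strand: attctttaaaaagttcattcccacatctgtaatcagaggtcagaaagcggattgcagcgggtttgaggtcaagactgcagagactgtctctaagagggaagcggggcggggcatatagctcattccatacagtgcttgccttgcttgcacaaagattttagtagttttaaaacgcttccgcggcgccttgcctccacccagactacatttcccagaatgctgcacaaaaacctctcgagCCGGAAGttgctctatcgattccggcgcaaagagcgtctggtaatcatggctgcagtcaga
Of these, Mrpl2 held an E-box, Mrpl12 an NRF1 motif and Mrps22 an ETS core, and the windows of Mrps6, Mrps2 and Mrpl24 held none of the 4. The genes called in all 3 lines thus shared no motif of the 4 in these windows.

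Across the 69 windows the motifs were unevenly represented. The ETS core occurred in 36.2% of them, against 9.12% of all 27025 windows and 21.2% of the 8112 windows of genes tested. The NRF1 motif occurred in 18.8%, against 4.78% and 12.3%. The YY1 motif occurred in 11.6%, against 1.49% and 3.86%. The E-box occurred in 7.25%, against 7.24% and 10.9%, and a CCAAT box (CCAAT, not capitalised above) in 39.1%, against 37.9% and 39.4%. The motifs were chosen after the genes' values had been seen. Among the 25 windows of genes called higher in mitotic libraries, 8 held the ETS core, 5 the NRF1 motif, 4 the YY1 motif, 4 the E-box and 12 the CCAAT box. Among the 38 of genes tested and not called, 14, 7, 4, 0 and 13 did. The E-box, the only 1 of the 5 motifs at 0 among genes not called, lay in the windows of Mrpl2, Mrpl20, Mrpl36 and Mrpl37, which were called higher, and of Mrps18c, which was called lower. That pattern was noticed after all 5 motifs had been scanned, rests on 5 genes and was not tested. A match describes the letters in the window and not the binding of a factor.

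The genes differed widely in level. CPM values are not divided by transcript length because each transcript gives reads only from its 3′ end, and levels of different genes therefore also depend on how well each 3′ end is captured. Averaged over the 12 libraries, 44 genes were at 100 CPM or more, 29 between 10 and 100 and 5 below 10, with a median of 127.7 CPM. Mrpl12 stood far above the rest, with a mean of 1438 CPM, 3.57 times that of the next gene, Mrps6, at 403 CPM. Mrpl12 encodes a protein of the flexible stalk of the large subunit, and it made up 14.7% to 20.9% of all large subunit reads. At the other end, Mrps33 and Mrpl23 averaged 2.92 and 3.24 CPM. Mrps18b, Mrpl53 and Mrps36 did not pass the filter on low counts, with 22, 4 and 4 reads in all 12 libraries together. Only 75 genes, 50 of the large and 25 of the small subunit, were therefore tested.

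Both subunits had a higher share of the reads in mitotic libraries. In asynchronous libraries the large subunit genes of WT summed to 7007 and 7022 CPM, those of S38A to 7383 and 7686 and those of S38D to 8348 and 7445. In mitotic libraries they summed to 9276 and 8706 CPM in WT, 8477 and 8002 in S38A and 9045 and 9496 in S38D. Each line's mitotic pair lay above its own asynchronous pair, while S38D asynchronous replicate 1 overlapped the lower S38A mitotic library. Small subunit genes summed to 2524 to 3058 CPM in the 6 asynchronous libraries and to 2927 to 3457 CPM in the 6 mitotic ones, with the same 2 libraries overlapping. The large subunit sum divided by the small subunit sum was 2.63 and 2.65 in WT asynchronous, 2.93 and 2.83 in S38A asynchronous and 2.73 and 2.79 in S38D asynchronous libraries. In mitotic libraries it was 2.68 and 2.65 in WT, 2.72 and 2.73 in S38A and 2.75 and 2.85 in S38D. The ratio thus overlapped between the states, and S38A asynchronous replicate 1 and WT asynchronous replicate 1 were its extremes. Without Mrpl12 the ratio ranged from 2.14 to 2.46 and was lower in both mitotic than in both asynchronous libraries of each line. The asynchronous pairs had 2.239 and 2.234 in WT, 2.464 and 2.411 in S38A and 2.265 and 2.339 in S38D. The mitotic pairs of the same lines had 2.154 and 2.143, 2.245 and 2.262, and 2.182 and 2.253. Across lines the states still overlapped.

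**Figure D1:**
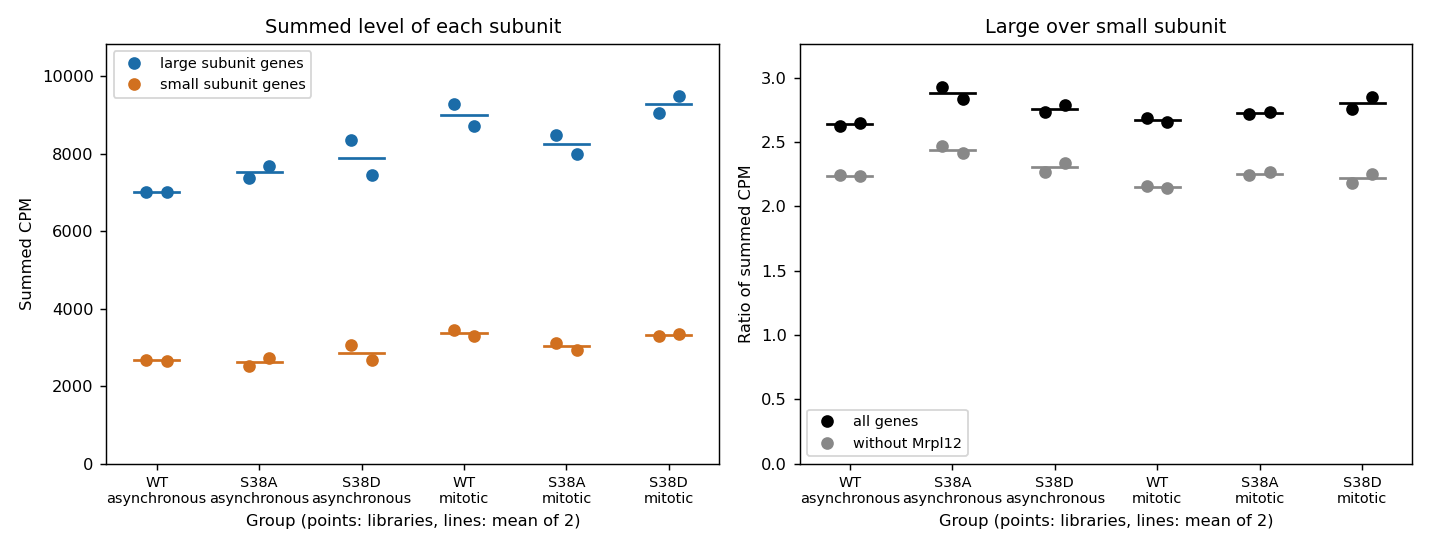
Summed CPM of large and small subunit genes (left) and the ratio of the sums with and without Mrpl12 (right), by group; points are libraries and lines the mean of 2. The large subunit sums lie between 7007 and 8348 CPM in asynchronous and between 8002 and 9496 CPM in mitotic libraries. The ratio lies between 2.63 and 2.93 with Mrpl12 and between 2.14 and 2.46 without it. Without Mrpl12, both mitotic libraries of each line lie below both asynchronous ones.

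The first comparison asked how the transcripts of the mitochondrial ribosome stood in mitotic against asynchronous cells, averaged over the 3 lines. Of 75 genes tested, 28 were higher and 3 lower in mitotic libraries by edgeR's quasi-likelihood test at a Benjamini-Hochberg adjusted p under 0.05. Over all 10477 genes tested, 20.5% were called higher and 21.6% lower. The median log2 difference of the 75 genes was 0.18, against -0.02 over all genes, with 58 fitted values above 0 and 17 below. This held relative to the other genes of the library: scaled to the spike-in RNA added to a fixed mass of total RNA, the median of all genes moved by -0.18, that of these genes to 0.00, and 14 were called higher and 8 lower, against 9.88% and 31.9% of all genes. Without the 2 libraries that stood apart, 38 were called higher and 4 lower. In bulk RNA, more RNA per cell and more cells with that RNA cannot be told apart, nor can mitosis and exposure to nocodazole. B cell markers moved with the state as well, with 6 of 7 called lower in mitotic libraries. Their part in the result was not tested.

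The large and the small subunit had similar shares of called genes and similar medians. Of the 50 large subunit genes tested, 19 were called higher and 2 lower, with a median log2 difference of 0.19. Of the 25 small subunit genes, 9 were called higher and 1 lower, with a median of 0.15. The difference of the medians, 0.03, ranged from -0.02 to 0.06 over all alternatives. Genes with a bacterial counterpart and mitochondria-specific genes had like shares as well, with 11 of 29 and 8 of 21 called higher in the large subunit and 6 of 16 and 3 of 9 in the small one. Calls were more frequent at higher levels. Of the 25 genes with the highest mean, 14 were called higher, against 8 of the middle 25 and 6 of the lowest 25. The median log2 differences of these sets were 0.23, 0.15 and 0.16, and the median SEs 0.07, 0.07 and 0.11. Across the 75 genes, which share libraries and depth, the log2 mean level and the log2 difference had a Pearson correlation of 0.24 and a Spearman correlation of 0.20. For exonic length these were 0.09 and 0.07.

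**Figure D2:**
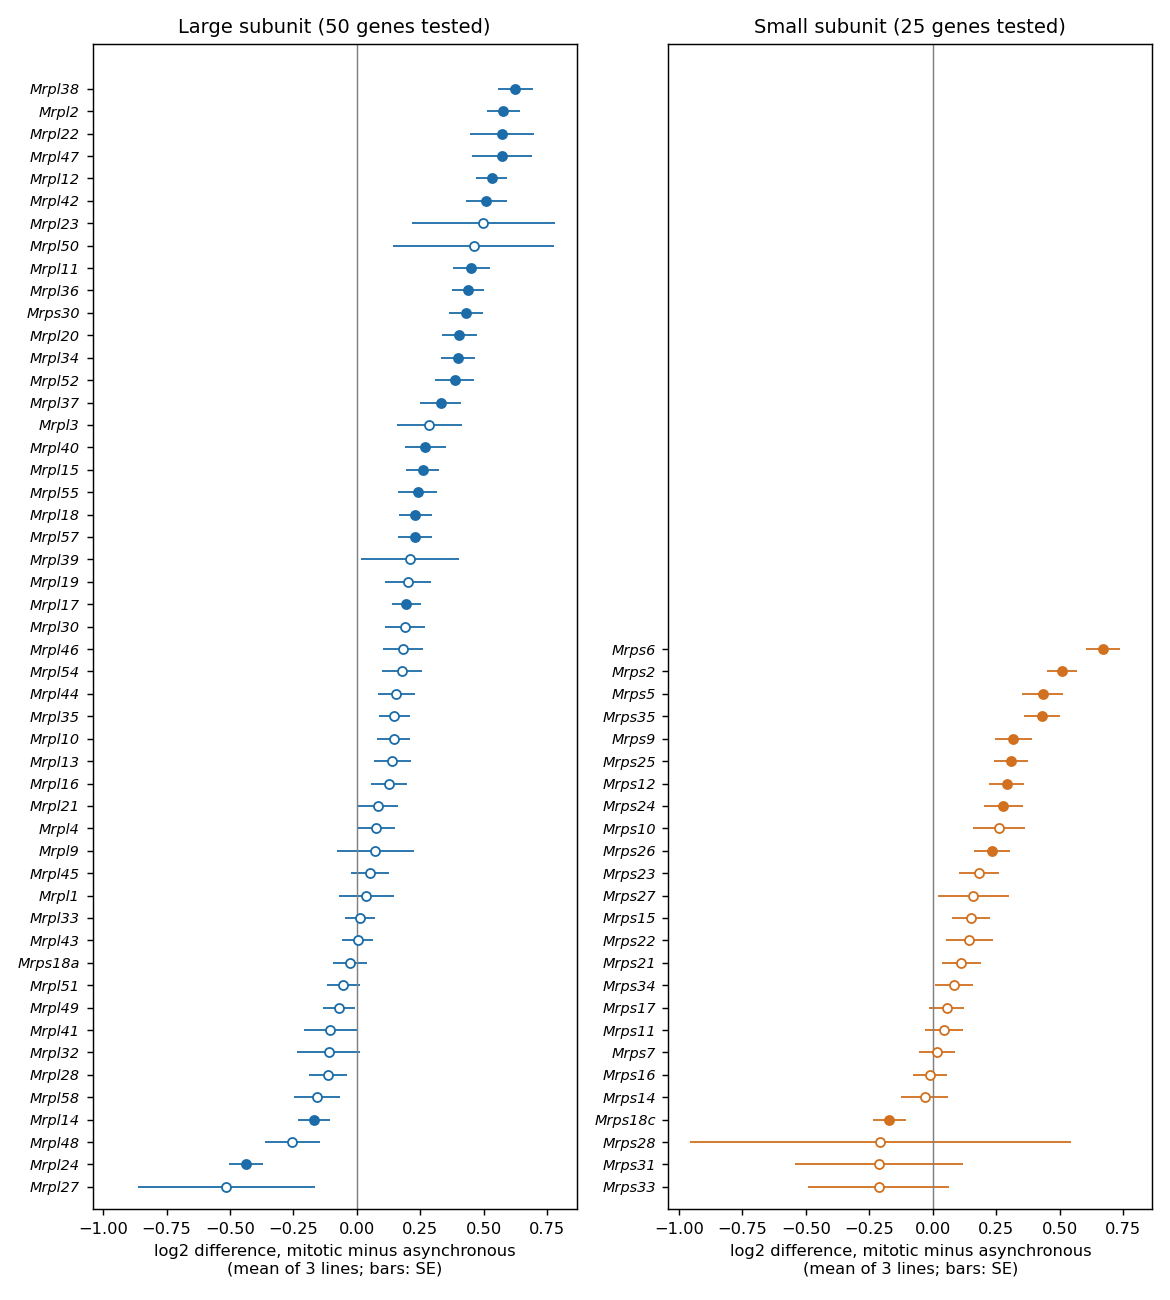
Fitted log2 difference between mitotic and asynchronous libraries, averaged over the 3 lines, for each large (left) and small (right) subunit gene tested; bars are the SE, and filled points were called at an adjusted p under 0.05. Called genes run from 0.67 for Mrps6 to -0.44 for Mrpl24, and both subunits hold genes on either side of 0.

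Among small subunit genes, Mrps6 rose most. It encodes bS6m, a protein at the edge of the small subunit platform, and lies at chr16:92058270-92112227 on the plus strand. Asynchronous libraries held 319 and 320 CPM in WT, 282 and 314 in S38A and 342 and 276 in S38D. Mitotic libraries held 625 and 583 CPM in WT, 463 and 411 in S38A and 447 and 456 in S38D. All 6 mitotic libraries were above all 6 asynchronous ones, and both WT mitotic libraries were above every other. The mean log2 difference was 0.67 (SE 0.07, adjusted p = 1.018e-06 by edgeR's quasi-likelihood test). Slc5a3, which overlaps Mrps6, averaged 2.76 CPM. Mrps2, whose product uS2m joins the head and body of the small subunit, had 121 to 136 CPM in the asynchronous and 179 to 196 CPM in the mitotic libraries, with no overlap and little spread (log2 difference 0.51, SE 0.06, adjusted p = 4.473e-06 by edgeR). Mrps5 and Mrps35 also rose, each by 0.43 on the log2 scale, with libraries of the 2 states apart. The adjusted p of Mrps5 was 0.069 with spike-in scaling.

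Among large subunit genes, Mrpl38, Mrpl2, Mrpl22 and Mrpl47 rose most. Mrpl2 encodes uL2m, a core protein near the catalytic centre, and Mrpl38 encodes mL38, a mitochondria-specific protein. In asynchronous libraries Mrpl38 had 105 and 105 CPM (WT), 82.6 and 88.0 (S38A) and 115 and 101 (S38D), and 168 and 152, 131 and 117, and 166 and 192 in the mitotic libraries of the same lines. The lowest mitotic library, S38A replicate 2, was still above the highest asynchronous one, S38D replicate 1. Its log2 difference was 0.62 (SE 0.07, adjusted p = 2.958e-06 by edgeR). Mrpl2 had 83.3 to 107 CPM in asynchronous and 114 to 158 CPM in mitotic libraries, again with no overlap (log2 difference 0.58, SE 0.06). Mrpl22 and Mrpl47, at 18.3 and 21.1 mean CPM, each rose by 0.57 (SE 0.13 and 0.12), and only Mrpl22 had the states apart. Mrpl47 overlaps Actl6a and Ndufb5, at 384 and 484 mean CPM, whose log2 differences of 0.06 and 0.15 were not called. Whether reads of these neighbours were counted for Mrpl47 was not tested.

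Mrpl12 and Mrpl11 belong to the same region of the ribosome, the stalk and its base, where translation factors bind. Mrpl12 had 1033 and 1094 CPM in WT, 1165 and 1138 in S38A and 1420 and 1192 in S38D asynchronous libraries, and 1829 and 1666, 1476 and 1382, and 1880 and 1982 in the mitotic ones. Only S38D asynchronous replicate 1, 1 of the libraries that stood apart, reached above a mitotic library, S38A replicate 2. The log2 difference of Mrpl12 was 0.53 (SE 0.06, adjusted p = 4.996e-06 by edgeR). Mrpl11 had 175 and 204 CPM in WT, 205 and 217 in S38A and 259 and 206 in S38D asynchronous libraries. Its mitotic libraries had 327 and 297 CPM in WT, 292 and 254 in S38A and 272 and 286 in S38D. The states overlapped through the same pair of libraries as for Mrpl12. The log2 difference of Mrpl11 was 0.45 (SE 0.07, adjusted p = 0.0001353 by edgeR).

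Mrpl42 and Mrpl36 completed the 12 largest rises among genes called, with log2 differences of 0.51 and 0.44. Mrpl36 overlaps Ndufs6, at 301 mean CPM, whose log2 difference of 0.16 was not called, and shared reads were not tested for. Of the 2 genes whose symbol names the other subunit, 1 was called. Mrps30, encoding mL65, rose by 0.43 (SE 0.07) with 119 to 145 CPM in asynchronous and 160 to 194 CPM in mitotic libraries. Mrps18a, encoding mL66, had 134 to 203 CPM in asynchronous and 138 to 187 CPM in mitotic libraries, which overlapped widely, and a log2 difference of -0.03 that was not called. In all, 8 genes had all 6 mitotic libraries above all 6 asynchronous ones and 0 the reverse, where 5.79% and 4.84% of all genes tested did. They were Mrps6, Mrps2, Mrps5, Mrps35, Mrps30, Mrpl38, Mrpl2 and Mrpl22.

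The genes that fell numbered 3. Mrpl24, which encodes uL24m, an early-assembling large subunit protein, lies at chr3:87919506-87923672 on the plus strand. It had 196 and 195 CPM in WT, 271 and 285 in S38A and 224 and 194 in S38D asynchronous libraries. The mitotic libraries had 160 and 151, 226 and 203, and 127 and 147 CPM. Mitotic libraries were lower within each line, but the S38A mitotic libraries overlapped the asynchronous ones of WT and S38D. The log2 difference was -0.44 (SE 0.07, adjusted p = 7.338e-05 by edgeR). Its overlapping neighbour Rrnad1, at 11.5 CPM, had a log2 difference of 0.12 that was not called. Mrpl14 and Mrps18c each fell by 0.17 on the log2 scale, and both calls were lost with DESeq2 (adjusted p = 0.0805 and 0.146). Those calls were also lost without 9 and 10 of the 12 libraries, respectively, left out in turn. Tmem63b, which overlaps Mrpl14, rose by 0.52, and whether reads of one were counted for the other was not tested.

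Within single lines the counts were smaller. In WT, 25 genes were called higher and 2 lower, against 13.4% and 12.7% of all genes, with a median log2 difference of 0.26. In S38A, 8 were called higher and 1 lower, against 6.72% and 8.06%, with a median of 0.15. In S38D, 12 were called higher and 2 lower, against 11.6% and 14.8%, with a median of 0.20. The WT comparison is the one most altered by spike-in scaling, under which all genes moved by -0.44 in the median and 1 gene was called higher and 12 lower. With that scaling S38A had 6 higher and 0 lower, and S38D 6 and 4. Spike-in reads were 2.705% and 2.29% of gene reads in the WT asynchronous pair, against 2.83% to 3.60% in all other libraries. The same pair enters the comparisons of S38A and S38D with WT in asynchronous cells and both differences of the mitotic change from WT. The spike-in shifts of those comparisons are therefore not independent of each other. The WT count of 25 was 11 without WT asynchronous replicate 1 or WT mitotic replicate 1 and 12 without WT asynchronous replicate 2. The S38A count of 8 ranged from 0, without S38A asynchronous replicate 1, to 15, without either S38D asynchronous library, and was 1, 3 and 4 without S38A mitotic replicate 1, S38A mitotic replicate 2 and S38A asynchronous replicate 2. The S38D count of 12 was 5 without S38D mitotic replicate 2 and 23 without S38D asynchronous replicate 1.

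In every line Mrps6, Mrpl2, Mrpl38 and Mrps2 were called higher, 4 genes in all, and 1, Mrpl24, was called lower, of 75 tested. Of all 10477 genes, 3.74% were called higher in every line and 3.87% lower. Fitted values were above 0 in all 3 lines for 39 of the 75 genes, against 26.5% of all genes, and below 0 in all 3 for 3, against 27.4%. Mrps2 had nearly the same log2 difference in each line, 0.53 in WT, 0.51 in S38A and 0.50 in S38D. Mrps6 had 0.92 in WT, 0.55 in S38A and 0.55 in S38D. Among the genes called in WT, the largest rises after Mrps6 were those of Mrpl22 (0.74), Mrpl11 and Mrpl12 (0.72 each), Mrpl2 (0.68) and Mrpl36 (0.65). The genes that fell in WT were Mrpl9 (-0.78) and Mrpl24 (-0.33). Among those called in S38A, Mrpl42 rose most (0.64), followed by Mrps6, Mrpl38 (0.54), Mrps2, Mrpl2 (0.47) and Mrps25 (0.47). Mrpl24 had -0.38 there. Among those called in S38D, Mrpl47 rose most (0.83), followed by Mrpl38 (0.73), Mrpl2 (0.58), Mrpl12 (0.56), Mrpl42 (0.55) and Mrps6, while Mrpl24 (-0.61) and Mrpl48 (-0.56) fell. Rab6a, which overlaps Mrpl48, averaged 162 CPM and had a log2 difference of -0.325 in the mean over the lines. Whether its reads were counted for Mrpl48 was not tested. In each line a gene that was not called had a higher fitted value with a wide error, Mrpl23 in WT (0.96, SE 0.48), Mrps28 in S38A (1.503, SE 1.38) and Mrpl50 in S38D (1.33, SE 0.55).

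**Figure D3:**
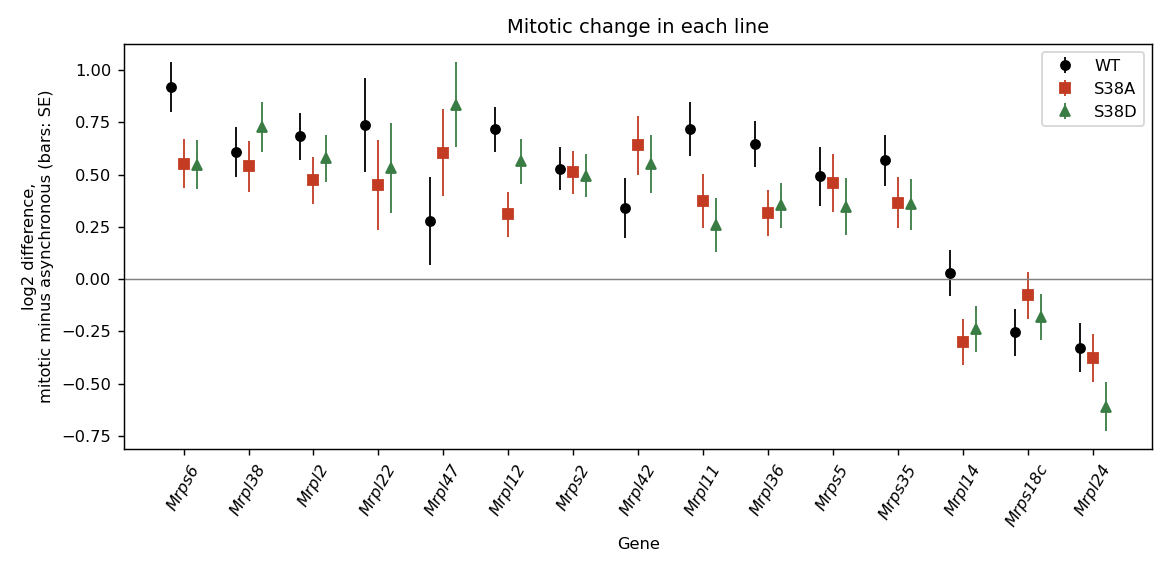
Fitted log2 difference between mitotic and asynchronous libraries in WT, S38A and S38D for the 12 genes that rose most and the 3 that fell in the mean over the lines; bars are the SE. Mrps2 lies near 0.5 in every line, whereas Mrps6, Mrpl11 and Mrpl36 have their highest point in WT.

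The difference between lines in the mitotic change was tested directly, as it addresses whether the RPL12 substitution altered the response. For S38A minus WT, 0 genes were called higher and 0 lower by edgeR, and also 0 by DESeq2, against 0.496% of all genes in each direction by edgeR. For S38D minus WT the counts were 0 and 0 by both tools, against 0.143% and 0.258%. At an unadjusted p under 0.05 there were 15 and 10 genes, of 1992 and 2003 over all genes tested. The medians were -0.16 and -0.11 on the log2 scale, and became 0.29 and 0.22 with spike-in scaling, under which all genes moved by 0.46 and 0.33. The large subunit median was -0.20 and the small subunit median -0.03 for S38A minus WT, and -0.13 and -0.06 for S38D minus WT. Mrpl11 rose in WT by 0.72 (SE 0.13), and its log2 differences in S38A and S38D, 0.37 and 0.26 (SE 0.13 each), were not called. The differences from WT, -0.35 and -0.46 (SE 0.18 each), were not called either (adjusted p = 0.309 and 0.194 by edgeR). The S38D comparison depended on S38D asynchronous replicate 2, without which 9 genes were called higher and 21 lower. The S38A comparison gave more lower calls without either S38D asynchronous library, although these are not in the groups it compares. The gene filter, the TMM scaling and the shared estimate of the spread were all redone without the library. Which of these changed the calls was not tested.

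Differences between the RPL12 lines within a state were few. These 4 comparisons share libraries: both asynchronous ones use the WT asynchronous pair and both mitotic ones the WT mitotic pair. In asynchronous cells, 6 genes were higher and 3 lower in S38A than in WT, against 11.7% and 9.54% of all genes, with a median log2 difference of 0.03. The large subunit had 5 higher and 1 lower and a median of 0.09, and the small subunit 1 higher and 2 lower and a median of -0.05. This was the largest gap between the subunits among the 4 comparisons of a mutant line with WT, 0.14, and it was 0.09 to 0.14 over all alternatives. The alternatives reuse these libraries and do not measure the spread between replicates. For replicate differences, the large minus small subunit median had an SD of 0.068. With spike-in scaling, which moved all genes by -0.45, 0 genes were called higher and 33 lower. The higher count ranged from 1, without WT asynchronous replicate 1 or S38A asynchronous replicate 2, to 14, without either S38D asynchronous library, and was 3 without WT asynchronous replicate 2. The lower count fell to 1 without any 1 of the WT asynchronous, S38A asynchronous, S38A mitotic and S38D mitotic libraries.

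Mrpl9, encoding bL9m of the large subunit, showed the largest of these differences that was called. In asynchronous libraries it had 39.3 and 34.0 CPM (WT), 12.8 and 14.8 (S38A) and 15.4 and 27.4 (S38D). In mitotic libraries it had 17.4 and 25.7 CPM in WT, 17.4 and 24.5 in S38A and 27.8 and 28.3 in S38D. The WT asynchronous pair was thus above all other libraries, and the S38A asynchronous pair was below all others. The log2 difference between S38A and WT asynchronous cells was -1.41 (SE 0.27, adjusted p = 0.002285 by edgeR), and it kept its call under every alternative, the fit without both libraries that stood apart among them. Mrpl9 also varied between replicates, with replicate 2 higher by 0.81 on the log2 scale in S38D asynchronous, 0.55 in WT mitotic and 0.49 in S38A mitotic libraries, as Mrps28 and Mrpl27 did. Those 2 genes were likewise lower in both S38A asynchronous libraries than in both WT ones, with 9.45 and 10.2 CPM against 20.5 and 17.6 for Mrpl27, though neither was called. Mrps33 and Mrps14 were also called lower, with log2 differences of -1.35 and -0.50, the former at 5.28 and 4.82 CPM in WT and 2.36 and 1.55 in S38A. Mrps14 was higher in replicate 2 by 0.48 in S38D asynchronous and 0.39 in WT mitotic libraries, and Mrps33 by 1.71 in WT mitotic libraries, while its replicates in S38D asynchronous cells differed by -0.03. What this variation between replicates contributes to the 3 lower calls was not tested. The genes called higher were Mrps22 (0.56), Mrpl24 (0.51), Mrpl52 (0.44), Mrpl49 (0.42), Mrpl17 (0.42) and Mrpl51 (0.34). With spike-in scaling Mrpl52, Mrpl49, Mrpl17 and Mrpl51 turned to values below 0, the lowest being -0.11 for Mrpl51.

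In S38D asynchronous cells 4 genes were higher than in WT and 1 lower, against 4.87% and 4.12% of all genes, with a median of 0.12. They were Mrpl49 (0.53), Mrpl4 (0.43), Mrpl36 (0.42) and Mrps18a (0.42), and Mrps14 was the lower one (-0.55). Syvn1, which overlaps Mrpl49, averaged 133.5 CPM, against 107.8 for Mrpl49. Whether its reads were counted for Mrpl49, here or in S38A asynchronous cells, was not tested. The count of 4 was 0 without WT asynchronous replicate 1, 1 without WT asynchronous replicate 2, 2 without S38D asynchronous replicate 1 and 31 without S38D asynchronous replicate 2, when 7 were lower. With spike-in scaling 0 were higher and 5 lower, after a shift of all genes by -0.38. Fitted with only the 4 libraries compared, no gene was called in either direction by edgeR, and DESeq2 called 2 higher and 0 lower. At an unadjusted p under 0.05 the fit with all libraries had 20.

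In mitotic cells 2 genes were higher and 7 lower in S38A than in WT, against 8.31% and 8.72% of all genes, with a median of -0.13. Mrps22, a mitochondria-specific protein of the small subunit, led the first. It had 29.7 and 24.4 CPM in WT, 37.5 and 42.9 in S38A and 33.7 and 34.7 in S38D asynchronous libraries. Its mitotic libraries had 30.4 and 26.1 CPM in WT, 55.7 and 46.5 in S38A and 33.4 and 36.4 in S38D. The S38A mitotic pair was above all other libraries, and the log2 difference from WT was 0.85 (SE 0.16, adjusted p = 0.001749 by edgeR). Mrpl24 was the other gene called higher (0.46). The lower ones were Mrps26 (-0.52), Mrps6 (-0.47), Mrps24 (-0.43), Mrpl45 (-0.40), Mrpl38 (-0.37), Mrpl14 (-0.35) and Mrpl2 (-0.33). The lower count was 0 without S38A mitotic replicate 2, 1 without WT mitotic replicate 1 and 13 without S38D asynchronous replicate 2. It was 2 with DESeq2 and 3 with spike-in scaling.

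Between S38D and WT mitotic cells 0 genes were called higher and 0 lower by edgeR, against 1.15% and 3.41% of all genes. DESeq2 also called 0 in each direction, and 5 had an unadjusted p under 0.05 in edgeR. The median log2 difference was 0.04. Mrps6 came nearest, at -0.42 (SE 0.12, adjusted p = 0.0518 by edgeR). None of the genes was called in 1 direction throughout the 4 contrasts of S38A and S38D with WT.

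**Figure D4:**
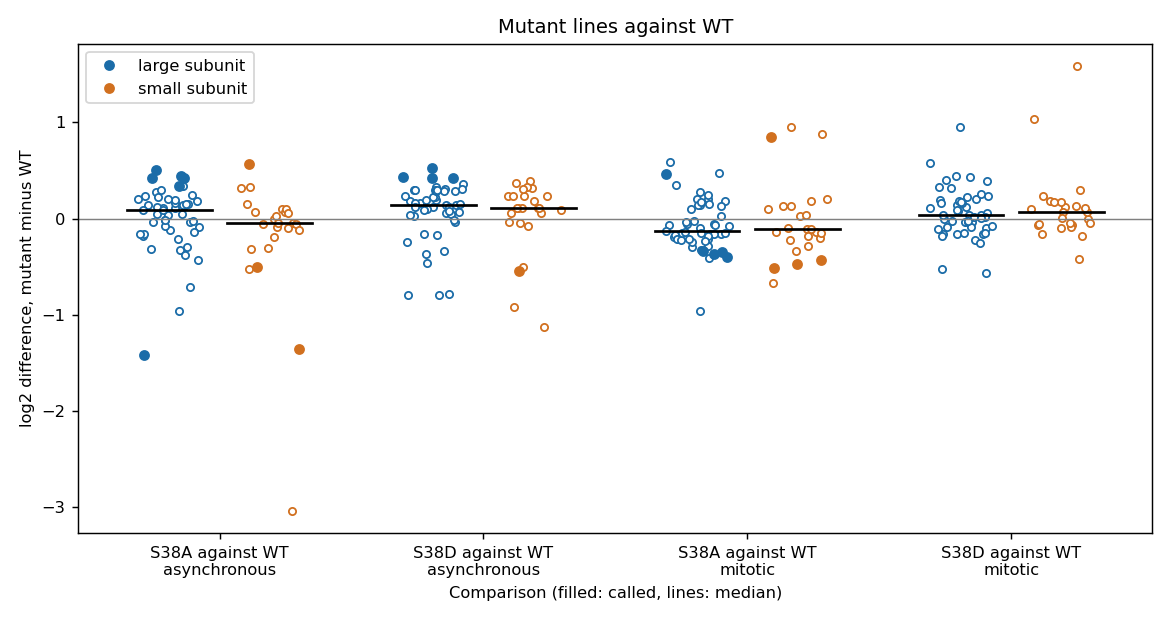
Fitted log2 differences of S38A and S38D from WT in each state, by subunit; each point is a gene, filled points were called at an adjusted p under 0.05, and lines are medians. The medians lie between -0.13 and 0.14, and the lowest filled points are Mrpl9 at -1.41 and Mrps33 at -1.35, both in S38A asynchronous cells.

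A few genes varied widely between replicates. They were picked out after their values had been seen. Mrps28, encoding bS1m of the small subunit, had 53.6 and 41.1 CPM in the asynchronous pair of WT, 2.21 and 9.48 in that of S38A and 2.55 and 41.5 in that of S38D. In mitotic libraries it had 2.27 and 16 CPM in WT, 13.2 and 19.5 in S38A and 31.5 and 22.1 in S38D. Its replicates differed by 3.84 on the log2 scale in S38D asynchronous and by 2.63 in WT mitotic libraries, and it was called in no comparison. In S38D asynchronous libraries Mrpl27, Mrps31, Mrpl50 and Mrpl39 were higher in replicate 2 by 1.08 to 1.68, and Mrpl23 differed by -1.27. In WT mitotic libraries Mrps33, Mrpl27, Mrps31 and Mrpl50 were higher in replicate 2 by 1.05 to 1.71. Apart from Mrpl23, the low values of these genes were in the library that stood apart. Such differences were about as frequent as over all genes: 6 and 5 of the 75 genes, 8% and 6.67%, differed by more than 1 in these groups, against the 9.8% and 5.74% of all genes given above. S38A asynchronous had 1 such gene, and the other 3 groups had 0.

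**Figure D5:**
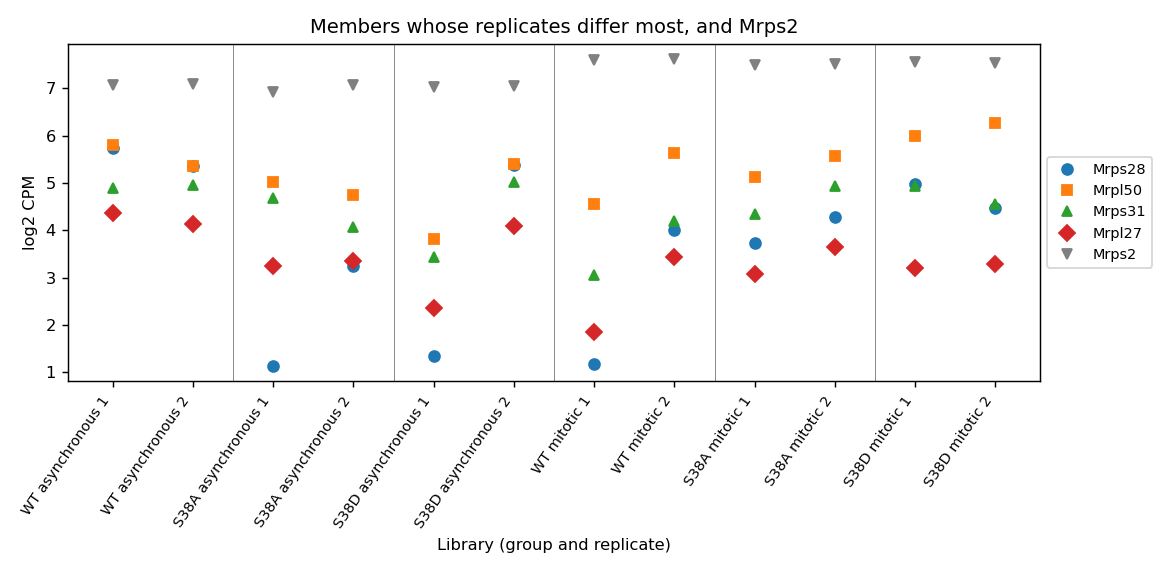
Log2 CPM in each library of 4 genes with large replicate differences and of Mrps2; each symbol is 1 gene in 1 library, and vertical lines separate groups. Mrps28, Mrpl50, Mrps31 and Mrpl27 are low in S38D asynchronous replicate 1 and WT mitotic replicate 1, where Mrps2 stays level with its replicate. The lowest value of Mrps28, 2.21 CPM, is in S38A asynchronous replicate 1.

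Genes that act with the mitochondrial ribosome were followed for context, from lists compiled with earlier results of these data known. Their counts stand beside 20.5% of all genes called higher and 21.6% called lower in this comparison. The 5 ribosomal proteins under other symbols included 2 called higher in mitotic libraries in the mean over the lines, Chchd1 (0.29) and Gadd45gip1 (0.31), and 0 called lower. Ptcd3 (0.28) and Aurkaip1 (0.08) were not called. Of 25 assembly and ribosomal RNA modification genes tested, 10 were called higher and 1, the methyltransferase gene Nsun4 (-0.34), lower. Nsun4 was lower in the mitotic pairs of S38A and S38D. In WT the states overlapped, with 25.8 and 30.9 CPM in asynchronous and 31.2 and 25.0 CPM in mitotic libraries. Noa1, a GTPase gene of small subunit assembly, rose by 0.87 (SE 0.08), Fastkd2 by 0.78 (SE 0.08) and Malsu1 by 0.41 (SE 0.08). Of 16 translation factor genes, 2 were called higher and 1 lower, both below the share over all genes. C1qbp rose by 0.71, with means of 1037 CPM (SD 115.7, n = 6) in asynchronous and 1695 CPM (SD 239.8, n = 6) in mitotic libraries. Mtfmt, which makes the formylated initiator, rose by 0.34, whereas Lrpprc, which stabilises mitochondrial mRNAs, fell by 0.37 in the mean over the lines. Lrpprc had 323 and 241 CPM in S38D asynchronous and 183 and 134 CPM in S38D mitotic libraries. In WT it had 168 and 169 CPM in asynchronous and 157 and 144 CPM in mitotic libraries. In S38A the states overlapped, with 303 and 336 CPM in asynchronous and 316 and 279 CPM in mitotic libraries.

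The mRNAs encoded in mitochondria include the products that this ribosome translates. Of 13 such genes 6 were listed at 0 in every library and 7 were tested, of which 3 were called higher and 0 lower. These were mt-Co1 (0.55), mt-Nd6 (0.76) and mt-Nd5 (0.46), and mt-Nd1 (0.20) was not called. The 6 at 0 were mt-Nd3, mt-Nd4l, mt-Co2, mt-Co3, mt-Atp6 and mt-Atp8. By contrast, mt-Cytb had 2366 to 5261 CPM and mt-Co1 159 to 307 CPM. Whether the values of 0 and the lower level of mt-Co1 reflect the RNA or reads lost in mapping or counting was not tested. Among 11 regulators of mitochondrial gene expression tested, 7 were called higher and 0 lower. Myc, which the genotype of the line also carries as an engineered allele, rose by 1.32 (SE 0.10), Ppargc1b by 0.90 (SE 0.13), Polrmt, the mitochondrial RNA polymerase gene, by 0.61 (SE 0.12) and Pprc1 by 0.54 (SE 0.11). Between the lines, Lrpprc was higher in S38A than in WT in asynchronous (0.92) and mitotic (0.98) cells and in S38D asynchronous cells (0.74). Yy1 was higher in S38A in both states (1.04 and 0.86). The ribosomal protein gene Dap3 was higher in S38A (0.45) and S38D (0.43) asynchronous cells than in WT.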

How the data were processed

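RNA was measured by 3′ mRNA sequencing (QuantSeq forward kit) in 12 libraries, 6 groups of 2. The deposited files hold raw counts of reads, with 51826 gene rows and 92 spike-in rows. Per the submitters' processing notes, the authors' tools and build were STAR 2.5.3a, mm10, cutadapt 1.12 and bcl2fastq 2.16.0.10. The counting program, its strand setting, its handling of reads with several matches and the annotation are each not given in the sources used here. Reads of the 26 genes here that overlap another protein-coding gene, and of genes with any of 5 processed pseudogenes, may therefore be shared.

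GENCODE M21 matched 51633 gene IDs (99.63%). The 10477 genes that passed filterByExpr (minimum count 10, by group) were scaled with TMM. A single edgeR 4.0.16 model (R 4.3.3) gave each group a mean over all 12 libraries (6 residual degrees of freedom, median prior 9.95, common biological coefficient of variation 0.143). Robust quasi-likelihood tests were called at an adjusted p under 0.05 (Benjamini-Hochberg, all 10477 genes, separately for each of 10 comparisons). SEs were derived from the F statistic. The fit was also run on simulated counts with changes planted in the mitotic libraries. These had the same spread for all genes and none of the shared replicate differences described above. They therefore do not measure how reliable the fit is on these data.

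The genes and lists were chosen with earlier results of these data known. Named genes were Mrpl11, Mrps30, Mrps18a and Mrps36, the 12 called genes with the largest change in each direction for the mean mitotic comparison and 6 for each other, genes called throughout, those of extreme level, and those of each list with the smallest adjusted p (4 in the mean mitotic comparison and 2 in each mutant comparison, named in part). Mrps28, Mrpl50, Mrps31, Mrpl27, Mrpl39, the genes of single motifs and any others outside this rule were chosen after their values were seen. Alternatives were DESeq2 1.42.0, DESeq2 size factors in edgeR, spike-in scaling, no filter, a fit of only the groups compared, a replicate block, both libraries that stand apart left out, subunits by symbol alone, and each library left out in turn.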

Additional observations from a re-analysis of the deposited data

How the results depend on the processing

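Of the 15 genes named for the mean mitotic comparison, 12 kept their call under every alternative run, the exceptions being Mrpl14, Mrps18c and, with spike-in scaling, Mrps5. The named single-line and single-state calls rested on 2 libraries a group. Of these, the calls kept throughout were Mrps6 in WT, Mrpl38 in S38D, Mrpl9 between S38A and WT asynchronous cells and Mrps22 between S38A and WT mitotic cells. Calls of genes outside the named ones were not followed individually through the alternatives. No named call in S38A mitotic against asynchronous cells or in S38D against WT asynchronous cells was kept throughout. Genes at a few CPM, such as Mrps33 and Mrpl23, had too few reads for small differences to be detectable, and read counts cover counting error only. A fit without 1 library assumes that the lone library left varies like the other groups. DESeq2 size factors in edgeR and subunits by symbol alone left each summary within its bounds, the cause of the other changes was not tested, and the mean over lines cannot be fitted with only the groups compared as a separate setting because it uses all 6.

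With spike-in scaling the mean mitotic comparison had 14 genes higher, 8 lower and a median of 0.000318, and WT had 1, 12 and -0.19. S38A mitotic against asynchronous had 0 lower, and S38D had 6 higher, 4 lower and a median of 0.0928. Against WT, S38A asynchronous cells had 0 higher, 33 lower and a median of -0.42, S38D asynchronous cells 0, 5 and -0.25, and S38A mitotic cells 3 lower. The medians of the mitotic change minus that of WT became 0.29 in S38A and 0.22 in S38D. The values of Mrpl17 (-0.0381), Mrpl49 (-0.0312), Mrpl51 (-0.113) and Mrpl52 (-0.00311) in S38A against WT asynchronous cells changed sign.

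With DESeq2 the genes called lower numbered 1 in the mean mitotic comparison, 0 in S38A and 1 in S38D mitotic against asynchronous cells, 1 and 2 in S38A against WT asynchronous and mitotic cells, and 0 in S38D against WT asynchronous cells, where 2 were higher. Without a filter, WT mitotic against asynchronous had 1 lower and S38D 4 lower. S38D against WT had 10 higher and 2 lower in asynchronous and 1 and 1 in mitotic cells without a filter, and the difference of the mitotic change from WT had 1 higher and 1 lower in S38A and 1 higher in S38D.

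Fitted with only the groups compared, S38A mitotic against asynchronous had 17 higher and 2 lower, S38D 1 and 0, S38A against WT asynchronous 13 and 10, S38D against WT asynchronous 0 and 0, S38D against WT mitotic 1 lower, and the change in S38A minus WT 1 higher and 5 lower. Without both libraries that stood apart, S38A mitotic against asynchronous had 17 higher and 3 lower, S38D 28 higher, S38A against WT asynchronous 16 and 9, S38D against WT 2 and 0 in asynchronous and 1 and 1 in mitotic cells, and the change in S38A minus WT 1 and 4. The median change in S38D minus WT was then 0.00704.

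Replicate numbers did not pair the samples in every group: of 15 correlations of replicate differences between groups, over 7062 genes, 3 were 0.55 to 0.79, 3 were -0.36 to -0.40 and the other 9 lay between -0.07 and 0.04. The first 3 joined S38D asynchronous, WT mitotic and S38A mitotic cells, and the next 3 set these against S38A asynchronous cells. With the replicate block, 2 genes were lower in S38D than in WT asynchronous cells, 1 was lower in S38D than in WT mitotic cells and 1 was higher for the change in S38A minus WT. Mrpl24 in WT then had an adjusted p of 0.0508 in edgeR, and no other named call was lost.

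Leaving out each library in turn gave 25 to 38 genes higher and 1 to 6 lower in the mean mitotic comparison, with a median of 0.16 to 0.20 and a large minus small subunit median of 0.00 to 0.06. In WT it gave 11 to 35 higher, 0 to 5 lower, a median of 0.23 to 0.31 and a subunit gap of -0.10 to 0.0525. In S38A it gave 0 to 15, 0 to 3, 0.0789 to 0.15 and -0.13 to -0.0122, and in S38D 5 to 23, 1 to 5, 0.0931 to 0.23 and -0.0281 to 0.0993. In S38A against WT it gave 1 to 14, 1 to 3, 0.0194 to 0.12 and 0.09 to 0.14 in asynchronous cells and 1 to 3, 0 to 13, -0.19 to -0.0645 and -0.03 to 0.04 in mitotic cells. In S38D against WT it gave 0 to 31, 0 to 7, 0.0657 to 0.29 and -0.01 to 0.03 in asynchronous cells and 0 to 1, 0 to 1, -0.0262 to 0.0684 and -0.09 to 0.03 in mitotic cells. For the change minus that of WT it gave 0 to 1, 0 to 11, -0.24 to -0.14 and -0.19 to -0.0663 in S38A and 0 to 9, 0 to 21, -0.22 to -0.0216 and -0.11 to 0.00578 in S38D.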
